A study of Apis mellifera with 6 samples.

Results

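The genes described here are a chosen set of named immune genes of the honey bee (Apis mellifera) midgut: 9 of the 10013 genes in the deposited tables, chosen by symbol and grouped by role. They are not all of the named immune genes that were measured. Recognition is covered by Pgrp-s2 and B-gluc1, Toll and Imd signalling by Dl, cact1 and Imd, and the effectors by Apid1, Def1, PPO and Tsf1. The rule that picks them uses symbols and no threshold on a value. All 9 had reads in every sample.

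RNA sequencing was done on midguts of bees fed sucrose solution for 24 hours. The control group (replicates 1, 2 and 3) received 0.5% DMSO, the solvent, and the tunicamycin group (replicates 2, 3 and 4) received 24 µM tunicamycin in the same 0.5% DMSO. Tunicamycin blocks N-glycosylation of proteins in the endoplasmic reticulum, and the study is titled for the IRE1 branch of the response to unfolded proteins. The age, caste and colony of the bees, and whether a sample pools several midguts, are not stated in the labels. Each sample held between 22763496 and 26278751 reads over the listed genes. Values below are normalized reads, that is read counts divided by 1 size factor per sample, so they compare samples for a gene and not genes with each other.

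Insect immunity rests on secreted or membrane-bound recognition proteins that bind bacterial peptidoglycan or fungal glucan and feed the Toll and Imd pathways. In the Toll pathway the inhibitor Cactus holds the NF-kappaB factor Dorsal in the cytoplasm until signalling destroys Cactus. In the Imd pathway the adaptor Imd links peptidoglycan receptors to a second NF-kappaB factor, Relish. Both pathways lead to antimicrobial peptide genes, which are made in fat body and in surface epithelia such as the gut, while prophenoloxidase serves melanin formation in the blood.

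None of the 9 immune genes passed the test between tunicamycin and control. The test was limma on log2(value + 1), with a Benjamini-Hochberg adjusted p under 0.05 over all genes, and it called 1.13% of the 10013 genes. The adjusted p of the 9 lay between 0.361 and 0.969, and 0 of 9 had an unadjusted p under 0.05, against 15.5% of all genes. edgeR and DESeq2 on the recovered reads also called 0 of 9, where they called 0.939% and 5.27% of the genes they tested. In all 9 genes the range of the tunicamycin samples overlapped that of the controls, while the groups did not overlap in 21.8% of all genes. In limma the fitted difference was at least 2-fold in 0 of 9, against 4.56% of all genes. In edgeR and in DESeq2 it was at least 2-fold in 1 of 9, Def1, against 4.71% and 4.76% of all genes. Of the 9 limma differences 4 were above 0 and 5 below, with a median of -0.09 on the log2 scale, beside 0.00 over all genes. For comparison, the endoplasmic reticulum chaperone Hsc70-3 (BiP) is the classical mark of unfolded protein stress. It passed at a log2 fold change of 2.73 (SE 0.40, limma adjusted p = 0.0279). Hsc70-3 held 68417, 35140 and 25372 normalized reads in controls 1, 2 and 3. In tunicamycin samples 2, 3 and 4 it held 211942, 267564 and 317129.

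**Figure D1:**
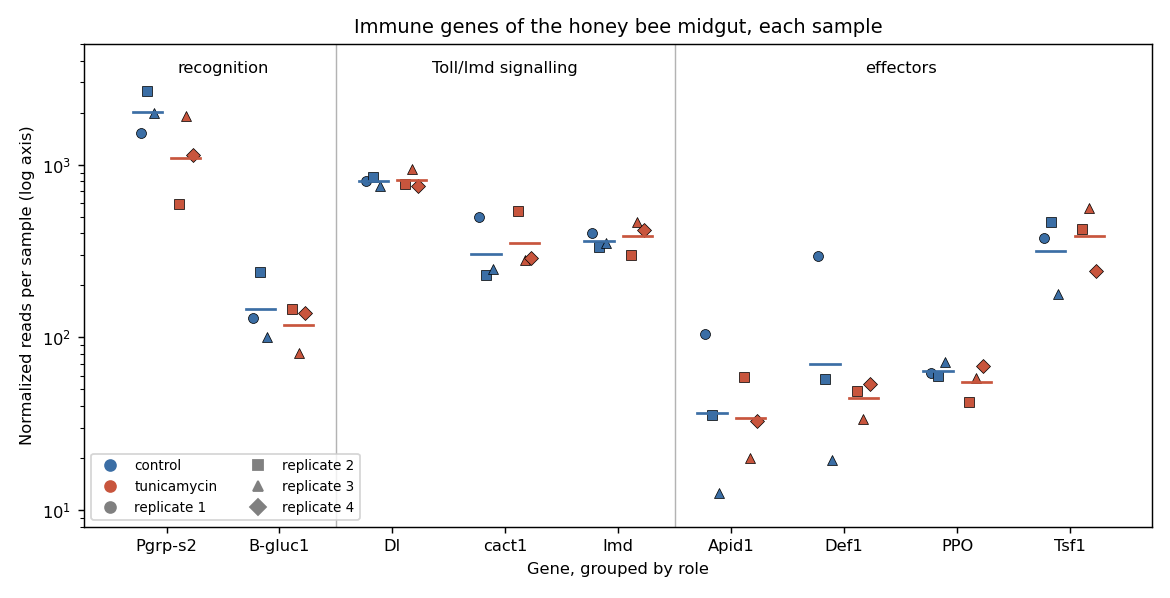
Normalized reads of the 9 immune genes in each of the 3 control and 3 tunicamycin samples, on a log axis, grouped by role. Bars are means of log2(value + 1) turned back to reads, and the groups overlap in every gene. Def1 ranges from 19.4 to 296 in the controls alone, while Dl stays between 752 and 948 over all 6 samples.

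Of the 2 recognition genes, Pgrp-s2 had the larger difference. It encodes a short peptidoglycan recognition protein of the secreted class. It held 1533, 2667 and 1992 normalized reads in control samples 1, 2 and 3, beside 592, 1914 and 1137 in tunicamycin samples 2, 3 and 4. The lowest value was that of tunicamycin sample 2 and the highest that of control 2, and tunicamycin sample 3 lay above control 1, so the groups overlapped. The means were 2064 ± 571 and 1214 ± 665 (SD, n = 3 each). The log2 fold change was -0.89 (SE 0.41; 95% interval -1.85 to 0.08; limma adjusted p = 0.361), which is 0.541-fold with an interval from 0.277 to 1.06. A difference at least this large in either direction was fitted for 6.13% of all genes. Without tunicamycin sample 2 it was -0.45, and without tunicamycin sample 3 it was -1.29 (limma adjusted p = 0.6 and 0.135).

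B-gluc1, which the reference table also lists as Gnbp1-2, encodes a beta-glucan recognition protein. It held 130, 239 and 100 normalized reads in control samples 1, 2 and 3, beside 146, 81.4 and 139 in tunicamycin samples 2, 3 and 4. Control 2 was high and tunicamycin sample 3 low, and the other 4 samples lay close together, within 100 to 146. B-gluc1 had a log2 fold change of -0.30 (SE 0.37; 95% interval -1.17 to 0.56; limma adjusted p = 0.735), and without control 2 it was 0.05. The reference table places LOC107964976, at 48 to 191 normalized reads, in overlap with B-gluc1, so reads could be shared between them. LOC107964975, which was not among the measured genes, also overlaps B-gluc1.

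The 3 signalling genes had differences of 0.22 or less on the log2 scale. Dl, the NF-kappaB factor Dorsal of the Toll pathway, held 805, 853 and 754 normalized reads in control samples 1, 2 and 3, beside 772, 948 and 752 in tunicamycin samples 2, 3 and 4. These were the most even values among the 9 genes, with a highest control 1.13 times the lowest. Its log2 fold change was 0.03 (SE 0.13; limma adjusted p = 0.938). The 95% interval ran from -0.27 to 0.33, that is from 0.827-fold to 1.26-fold. A control spread as wide as that of Dl or wider was found in 83.4% of all genes. In the reference table Dl overlaps LOC551774, which was at 24315 to 33049 normalized reads, and LOC100576894, so reads could be shared between them depending on how the authors counted.

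Imd, the adaptor for which the Imd pathway is named, held 403, 332 and 352 normalized reads in control samples 1, 2 and 3, beside 299, 465 and 421 in tunicamycin samples 2, 3 and 4. The tunicamycin samples held both the lowest and the highest value and enclosed the controls. The log2 fold change was 0.10 (SE 0.19; 95% interval -0.34 to 0.55; limma adjusted p = 0.836). Without tunicamycin sample 3 it was -0.03.

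The gene cact1, one of the bee genes for the inhibitor Cactus, held 495, 229 and 248 normalized reads in control samples 1, 2 and 3, beside 542, 280 and 290 in tunicamycin samples 2, 3 and 4. One sample in each group, control 1 and tunicamycin sample 2, was high, and the other 4 lay between 229 and 290. For cact1 the log2 fold change was 0.22 (SE 0.36; 95% interval -0.64 to 1.07; limma adjusted p = 0.820). Without control 1 it was 0.57 and without tunicamycin sample 2 it was -0.09, with limma adjusted p = 0.383 and 0.942.

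**Figure D2:**
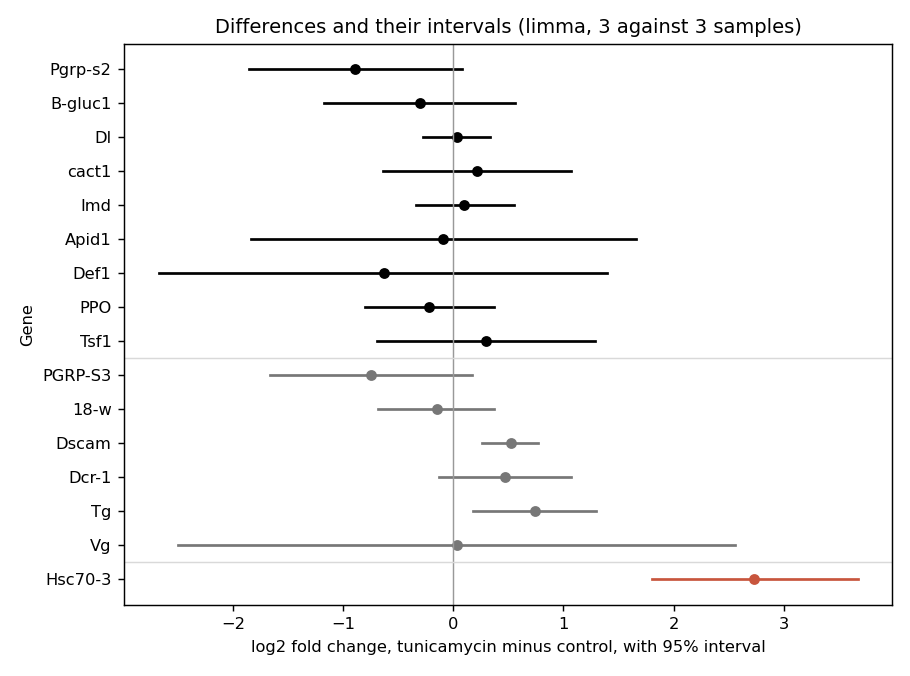
Log2 fold changes (tunicamycin minus control) with 95% intervals from limma, for the 9 immune genes (black), 6 other immune genes matched by name (grey) and Hsc70-3 (red). The intervals of all 9 immune genes include 0; that of Dl is the narrowest of the 9 and that of Def1, from -2.67 to 1.40, the widest.

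Among the effectors, the antimicrobial peptide genes Def1 and Apid1 varied most between control samples. Def1, for the cysteine-rich peptide defensin-1, held 296, 57.7 and 19.4 normalized reads in control samples 1, 2 and 3, beside 49.1, 33.8 and 53.7 in tunicamycin samples 2, 3 and 4. The highest control was 15.2 times the lowest, against 1.59 times in the tunicamycin group, and all 3 tunicamycin samples lay between controls 3 and 2. A control spread this wide or wider was found in 0.639% of all genes.

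In recovered reads, control 1 had 296 reads of Def1 (exact 95% Poisson interval 263.2 to 331.7) and control 3 had 20 (12.2 to 30.9). These intervals cover counting error only, and they do not meet. The log2 fold change of Def1 was -0.63 (SE 0.87; limma adjusted p = 0.768), with a 95% interval from -2.67 to 1.40, or from 0.157-fold to 2.64-fold. On the recovered reads edgeR and DESeq2 each put Def1 at -1.45 (adjusted p = 0.466 and 0.349). The means of its normalized reads were 124 ± 150 in the controls and 45.5 ± 10.4 under tunicamycin (SD, n = 3 each). In limma the means compared are those of log2 values, and with 0.1 added in place of 1 Def1 stayed at -0.63. The cause of the gap between the tests was not tested. The sign of the limma value rested on control 1: without that sample the log2 fold change was 0.40 (limma adjusted p = 0.713), and without control 3 it was -1.53 (limma adjusted p = 0.480).

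Apid1, for the proline-rich peptide apidaecin, held 104, 35.4 and 12.6 normalized reads in control samples 1, 2 and 3, beside 58.9, 20.1 and 33.0 in tunicamycin samples 2, 3 and 4. The 3 controls stood in the same order as for Def1, and again the tunicamycin samples lay between the highest and the lowest control. The control ratio of highest to lowest was 8.24, and a spread this wide was found in 1.26% of all genes. Control 3 held 13 reads (exact 95% Poisson interval 6.9 to 22.2) and control 1 held 104 (85.0 to 126.0).

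The log2 fold change of Apid1 was -0.09 (SE 0.75; 95% interval -1.84 to 1.66; limma adjusted p = 0.969), and it was -0.45 in edgeR and -0.44 in DESeq2 (adjusted p = 0.808 and 0.839). The normalized reads of Apid1 had means of 50.7 ± 47.6 in the controls and 37.3 ± 19.7 under tunicamycin (SD, n = 3 each). With 0.1 added in place of 1, limma gave -0.08. In limma, without control 1 the log2 fold change was 0.65, and without control 3 it was -0.82, with limma adjusted p = 0.611 and 0.657. Apidaecin genes belong to a family of near-identical copies, so reads of Apid1 may be split among copies and its level is uncertain. Apid14 and Apid22 are listed as other names of Apid1 itself, not as separate genes. At 3 samples a group and this spread, a 2-fold change in either direction lies inside the interval of each peptide gene.

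Def1 and Apid1 were each other's nearest profile among the 9 genes. The measure was the root mean square difference of the mean-centred log2 profiles over the 6 samples, which was 0.51 for this pair. Among 294 other genes with a symbol, the nearest to each was Y-f, named for yellow-f of flies, a melanin pathway enzyme there, at 0.59 from Def1 and 0.42 from Apid1. Y-f held 792, 180 and 140 normalized reads in control samples 1, 2 and 3, beside 336, 98.3 and 160 in tunicamycin samples 2, 3 and 4.

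Next to Def1 came the cytosolic chaperone gene Hsp90, at 0.68, and the synaptic adhesion gene Nrx-1, at 0.72. Next to Apid1 came the microRNA gene Mirlet7, at 0.49, and the chloride channel gene pHCl, at 0.58. In 4 of these 5 genes control 1 was the highest of the 6 samples, and pHCl was highest in tunicamycin sample 2. Over all genes too, control 1 stood apart: its score on principal component 2, which held 25.1% of the variance, was 48.7, and those of controls 2 and 3 were -21.3 and -14.3.

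**Figure D3:**
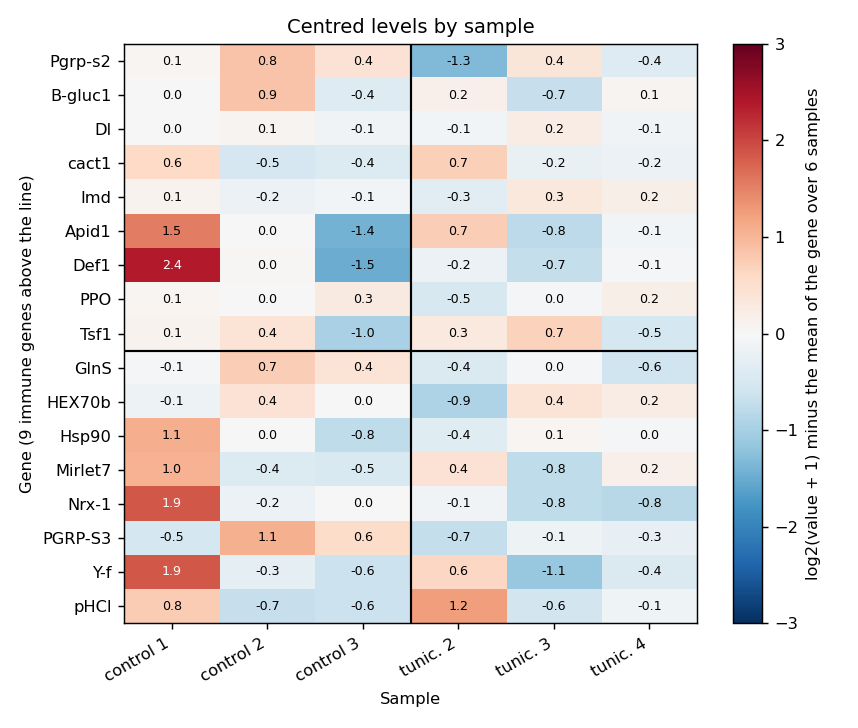
Log2(value + 1) of each gene minus its mean over the 6 samples, for the 9 immune genes (above the line) and the genes with the most similar profiles (below it). Def1 is at 2.4 and Apid1 at 1.5 in control 1, and Pgrp-s2 is lowest, at -1.3, in tunicamycin sample 2.

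PPO encodes prophenoloxidase, the precursor of the enzyme that starts melanin formation, and is mainly a blood cell gene. It held 62.0, 59.6 and 71.9 normalized reads in control samples 1, 2 and 3, beside 42.5, 58.1 and 67.9 in tunicamycin samples 2, 3 and 4. Tunicamycin sample 2 was lowest and the other 5 samples lay between 58.1 and 71.9. PPO had a log2 fold change of -0.22 (SE 0.25; 95% interval -0.80 to 0.37; limma adjusted p = 0.714).

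Tsf1, the iron-binding protein transferrin, which withholds iron from microbes, held 378, 468 and 179 normalized reads in control samples 1, 2 and 3, beside 427, 564 and 243 in tunicamycin samples 2, 3 and 4. In the reference annotation Tsf1 overlaps LOC113218519, which was not among the measured genes, so reads could be shared there too. For Tsf1, control 3 and tunicamycin sample 4 were the low samples of their groups. The log2 fold change was 0.30 (SE 0.42; 95% interval -0.69 to 1.29; limma adjusted p = 0.776), and without control 3 it was -0.11.

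**Figure D4:**
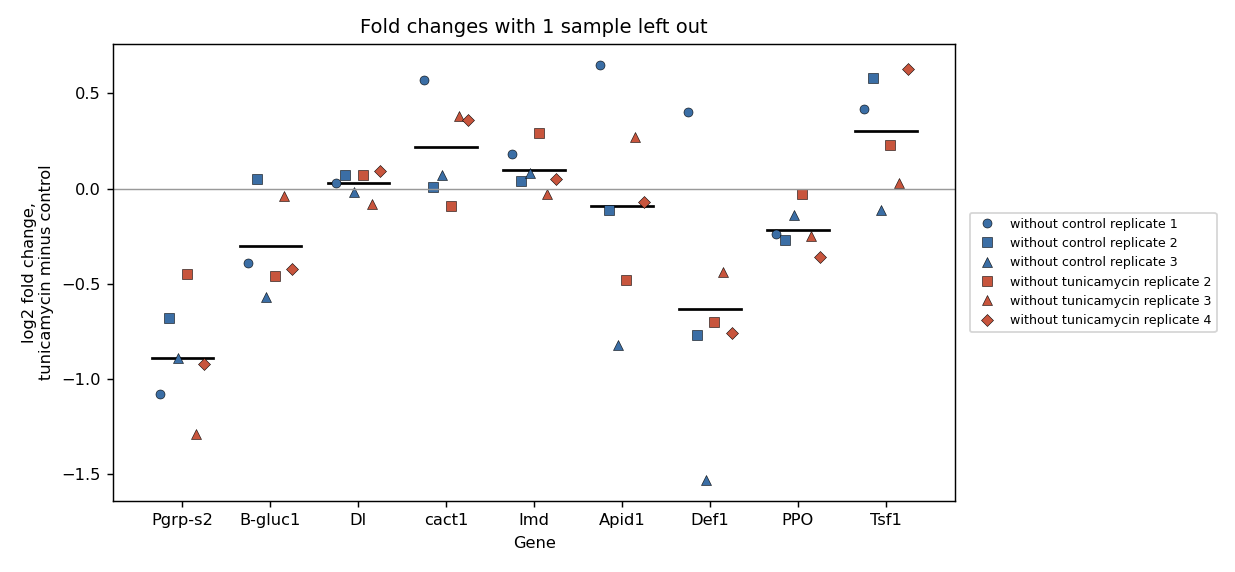
Log2 fold change (tunicamycin minus control) of each immune gene with 1 of the 6 samples left out (symbols), beside the value from all 6 (black bar). Pgrp-s2 stays below 0 in all 6 fits, from -1.29 to -0.45, as does PPO, while Def1 moves from -0.63 to 0.40 without control 1.

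The genes nearest in profile to Pgrp-s2 included a second peptidoglycan recognition gene. PGRP-S3, also listed as Pgrp-sa, held 236, 716 and 500 normalized reads in control samples 1, 2 and 3, beside 205, 307 and 284 in tunicamycin samples 2, 3 and 4. Its samples had the same order within each group as those of Pgrp-s2: control 2 above 3 above 1, and tunicamycin 3 above 4 above 2. Its root mean square difference from Pgrp-s2 was 0.41, and its log2 fold change was -0.75 (SE 0.39; limma adjusted p = 0.408).

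Nearest to Pgrp-s2 were HEX70b, a hexamerin storage protein made in fat body, at 0.39, and GlnS, named for glutamine synthetase, at 0.41. HEX70b held 249, 372 and 277 normalized reads in control samples 1, 2 and 3, beside 144, 366 and 321 in tunicamycin samples 2, 3 and 4. In the reference table Pgrp-s2 overlaps LOC100576758, so reads may be shared there too. LOC100576758 had the same order of samples within each group, from 433 in control 2 to 124 in tunicamycin sample 2. The flanking genes LOC725158 and LOC551249, listed without overlap, had that order too. Whether reads were shared was not tested.

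Another 6 immune genes could be matched by symbol or synonym from a list of 105 names: PGRP-S3, 18-w (a receptor of the Toll family in flies), Dscam, Dcr-1, Tg and Vg, which is also among the fat body markers below. None passed in limma, 2 of 6 had an unadjusted p under 0.05 (15.5% of all genes did), and their median log2 fold change was 0.25. Dscam, an immunoglobulin-type surface protein with many splice forms in insects, held 590, 557 and 643 normalized reads in control samples 1, 2 and 3, beside 844, 831 and 884 in tunicamycin samples 2, 3 and 4. Its groups did not overlap, nor did those of Tg, against 21.8% of all genes. Tg was counted by its symbol alone, as its role in the bee was not given in the annotation used. Dscam had a log2 fold change of 0.52 (SE 0.11; limma adjusted p = 0.0901). Tg had a log2 fold change of 0.74 (SE 0.24; limma adjusted p = 0.218), and that of Dcr-1, a Dicer ribonuclease, was 0.47 (SE 0.26; limma adjusted p = 0.433). Abaecin, hymenoptaecin, Relish and the Toll receptor were not matched by name and were not analysed here, nor was Def2.

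Immune genes are also expressed in fat body and blood cells, and in bulk tissue fewer cells of a type and less RNA per cell cannot be told apart. The gut markers AGLU2 and Hbg2, alpha-glucosidases that split dietary sugars, together held between 701321 and 1590712 normalized reads in each sample. Of 8 fat body and blood protein markers 6 were measured. Per sample they summed to 1475 to 2458 normalized reads among controls and 1412 to 1891 under tunicamycin, and 0 of 6 were at 0 in any sample. Control 1, the highest in Def1 and Apid1, had the lowest sum among the controls, and its vitellogenin (Vg) was at 6 against 95.9 and 14.6 in controls 2 and 3. Hex70a went the other way, at 297 in control 1, the highest of the 6 samples, against 194 and 184 in controls 2 and 3. Tunicamycin sample 2, the lowest in Pgrp-s2 and PPO, had the lowest sum of all 6 samples, at 1412 beside 1475 in control 1. The largest part of each sum was Mrjp8. It held 785, 1540 and 1640 in controls 1, 2 and 3. In tunicamycin samples 2, 3 and 4 it held 964, 879 and 1204. None of the 6 markers passed in limma. Hex70a had the largest difference, at log2 -0.80 (SE 0.23, limma adjusted p = 0.176).

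Of 5 blood cell markers PPO alone was matched. The 7 muscle markers summed to between 5014 and 8410 normalized reads per control and between 6388 and 8487 per tunicamycin sample, the 3 hypopharyngeal gland markers to between 1912 and 3080 and between 2015 and 2227, and the 3 enteroendocrine and neuronal markers to between 619 and 750 and between 709 and 1118. None of these passed in limma. The part of other cell types in the values of the immune genes was not tested.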

How the data were processed

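The authors deposited 3 tables of normalized signal, each with 1 control and 1 tunicamycin sample and the same 10013 genes. Trimmomatic 0.36, STAR, Subread and DESeq2 are named, per the submitters' processing notes, without their settings; neither the genome build nor the strand setting of the counting is stated. Each column is made of whole multiples of the worth of 1 read (100.0% of values, within 0.001 of a read), so read counts were recovered. The median ratio to the geometric mean is 1.0030 in all 6 samples, so they share 1 scaling.

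The test was limma-trend (version 3.58.1, in R 4.3.3), fitted to log2(value + 1) with group as the sole term; fold changes on this scale understate changes of low genes. The filter, a mean value of 1 or more, left out 0 genes, so the fit without it repeats the main one. Intervals are at 95%. edgeR 4.0.16 with TMM and DESeq2 1.42.0 were run on the recovered reads. The scripts were tested on simulated data. The exact permutation test over 3 against 3 samples cannot go below p = 0.1, and gave 0.2 to 0.9 for the 9 genes. Nothing in the labels says that replicates are separate cages or colonies: a p-value here reflects the spread of these 6 samples, possibly a technical one.

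The 9 genes, the marker lists and the other immune genes were chosen with earlier results of these data known, and all 9 are named. From the list of other immune genes, those with the smallest p are given with values. For genes whose values span at least 2 on the log2 scale, the 3 nearest named profiles are given. Synonyms and overlaps are from the RefSeq table of Amel_HAv3.1, which holds no sequences and whose build may differ from the authors'.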

Additional observations from a re-analysis of the deposited data

How the results depend on the processing

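The count of 0 of 9 immune genes held in all 16 alternatives, with 1 gene, Pgrp-s2, at an unadjusted p under 0.05 in 3 of them. Of 144 fold changes of the 9 genes, 129 kept their sign and 15 did not. Changing the filter could not change a sign. Pgrp-s2 and PPO kept their sign in all 16. Without control 1, Apid1 was at log2 0.65 and Def1 at 0.40, and without both control 1 and tunicamycin 3 they were at 1.02 and 0.60, with Dl at -0.07; fewer samples enter these fits. Without tunicamycin 3, Apid1 was at 0.27, Dl at -0.08 and Imd at -0.03. Without control 2, B-gluc1 was at 0.05; without control 3, Dl was at -0.02 and Tsf1 at -0.11; without tunicamycin 2, cact1 was at -0.09. Upper-quartile scaling put Dl at -0.0011. The following ranges of log2 fold changes are from the fits without 1 sample or without both control 1 and tunicamycin 3. Apid1 ran from -0.82 to 1.02, Def1 from -1.53 to 0.60 and B-gluc1 from -0.57 to 0.05. Dl ran from -0.08 to 0.09 and Imd from -0.03 to 0.29. Tsf1 ran from -0.11 to 0.63 and cact1 from -0.09 to 0.73.

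Over all genes limma called 113, of which 106 were higher and 7 lower in tunicamycin. DESeq2 called 516 (401 higher, 115 lower), and the cause was not tested. With samples left out the counts ran from 20 to 362 in all, from 18 to 263 higher and from 1 to 99 lower, the lowest total without control 3 and the highest without both control 1 and tunicamycin 3. The cause was not tested.

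Deviations from the group means correlated at 0.05, 0.15 and 0.05 within tables, and those with the same replicate number at -0.12 and -0.10. In 4 of 6 samples the partner within the table correlated best. So few pairs cannot decide whether samples were paired, and the main fit used neither arrangement. The replicate block by deposited table left 44 genes called by limma (41 higher, 3 lower). There Pgrp-s2 had a limma p of 0.00447 unadjusted and 0.177 adjusted, with 1323 genes at an unadjusted p under 0.05. With the replicate block by shared replicate number, on 4 samples, limma called 4 genes, 4 higher and 0 lower. There 1054 genes had an unadjusted p under 0.05, and Apid1 and Def1 were at 0.67 and 0.27. The wide intervals of Apid1 and Def1 limit what these data can show of them. Their values moved with the test: edgeR and DESeq2 gave -1.45 each for Def1, and -0.45 and -0.44 for Apid1, against -0.63 and -0.09 in limma.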

Other observations

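Each deposited table holds 1 control and 1 tunicamycin sample, and the labels do not say what a table stands for. Within the tables Pgrp-s2 was lower in tunicamycin in all 3, at ratios of 0.386, 0.718 and 0.571 to the control of the same table. PPO was lower in all 3 as well, at 0.686, 0.976 and 0.945. The inhibitor gene cact1 was higher in all 3, at 1.09, 1.22 and 1.17, and so was Tsf1, at 1.13, 1.21 and 1.36. Over all genes 18.6% were lower and 18.2% higher in all 3 tables, so that 2 of 9 in each direction is near the background. Across the tables, 4 of the 9 genes (Pgrp-s2, Dl, cact1 and Tsf1) had their 3 controls in the same order as their 3 tunicamycin samples, where 15.1% of all genes did. Def1 and Apid1 were not among them: their ratios were 0.166, 0.586 and 2.77 for Def1 and 0.566, 0.568 and 2.61 for Apid1, with tunicamycin above control in the table of control 3 alone.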
